A study of Mus musculus with 3 samples.

Results

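The simple epithelial keratins described here are 6 genes, Krt8, Krt7 and Krt80 of type II and Krt18, Krt19 and Krt10 of type I, chosen by their symbols from the 30406 genes shared by the 3 libraries. Another 47 keratin genes were set beside them. The question was which disc cells hold their transcripts, and whether single cells hold both types at once. The study profiled single cells of untreated mouse intervertebral discs at postnatal day 30 with a droplet method that reads the 3′ end of transcripts. The animals carried shh-cre and R26R-tdTomato, so that tdTomato labels Shh-expressing cells and their descendants, and the 3 libraries are replicates of this 1 group. Each library is a pool of litter-matched animals whose lumbar, thoracic and caudal discs were diced, digested with collagenase and sorted for tdTomato. Unsorted cells and other genotypes were not analysed here.

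The study itself recognised nucleus pulposus cells by Krt8, Krt18, Krt19 and T, which would make keratin levels a matter of definition. Here keratins took no part in choosing cells. Nucleus pulposus (NP) cells were those with at least 1 UMI (a unique molecular identifier, which stands for 1 captured transcript) of T, the gene of the notochord transcription factor brachyury, and at least 2 of Car3, a carbonic anhydrase. Other classes were cells with no UMI of T and at least 3 of a class's markers at 2 UMIs or more each. NP-gated cells numbered 493, 140 and 25 in libraries 1, 2 and 3, which is 8.60%, 1.30% and 0.241% of the 5732, 10786 and 10364 cells kept, and 658 in all. The other gated cells numbered 4447, 9598 and 9414, most of them blood cells, and included 1038, 629 and 833 cells gated as chondrocyte, osteoblast, marrow stromal cell, fibroblast or several of these, called connective cells below. NP-gated cells that also passed a gate of blood, endothelial or other foreign cells (62, 42 and 5) were set apart. Those that passed a connective gate were kept as NP-gated.

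Depth differed between the libraries, with median UMIs per NP-gated cell of 3100, 9085 and 2205, and total UMIs over all barcodes of 64695292, 145925353 and 137188648. Libraries 2 and 3 shared 224 cell barcodes (1.90% of those of library 2), library 1 shared 24 with library 2 and 29 with library 3, and 2, 1 and 1 of the NP-gated cells had such a barcode. The summed level of T and Car3 was 18017 to 21324 CPM (counted UMIs scaled to a fixed total) in NP-gated cells and 25.6 to 154 CPM in the other gated cells. In connective cells alone it was 48.6, 709 and 1346 CPM in libraries 1, 2 and 3. All of that was Car3, since their gates asked for no UMI of T. A list of 7 epithelial markers, Epcam among them, had 4, 6 and 7 genes at 0 in the NP-gated cells and a summed level of 4.18, 2.34 and 0 CPM. Connective markers (32 genes) reached 8881, 3679 and 37036 CPM in NP-gated cells, and library 3, with 25 NP-gated cells, stood highest.

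Keratins build the intermediate filaments of epithelial cells. A filament forms only when a type I chain pairs with a type II chain, so a cell that makes one type alone is not known to build a stable keratin network. Krt8 and Krt18 are the pair of simple, single-layered epithelia, Krt19 is a short type I keratin that also pairs with Krt8, and Krt7 is a type II keratin of ducts and glands. Krt80 is a type II keratin found in many epithelia, and Krt10 is the type I keratin of the upper layers of the epidermis, where its partner is Krt1. The nucleus pulposus derives from the notochord, and keratins 8, 18 and 19 are long-used labels of notochord-derived cells.

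In mm10 the type II members lie on chromosome 15, Krt8 at 101996698 to 102004482 on the minus strand, Krt7 at 101411043 to 101430313 on the plus strand and Krt80 at 101347444 to 101370162 on the minus strand. Krt18, although of type I, lies beside Krt8 at 102028180 to 102032027 on the plus strand of the same chromosome. The annotated starts of Krt8 and Krt18 are 23698 bases apart with 0 annotated genes between them. The other type I members lie on chromosome 11, Krt19 at 100140810 to 100148665 and Krt10 at 99385254 to 99389364, both on the minus strand. Krt10, Krt7, Krt8 and Krt80 overlap an RNA gene on the opposite strand (Gm11940, Gm671, Gm36026 and Gm35853), and since the strand setting of the counting is not given in the sources used here, reads of such pairs may not have been told apart.

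Promoter windows of 250 bases before to 50 after the start site were taken from a table of RefSeq promoters (GRCm38.p6), in which 4 of the 6 members were matched. Those of the neighbours Krt8 and Krt18, which were high together in NP-gated cells, and of Krt10, which was not confined to them, are shown. Capitals mark matches to TATAAA on either strand.
Krt8, chr15:102004293-102004592, minus strand: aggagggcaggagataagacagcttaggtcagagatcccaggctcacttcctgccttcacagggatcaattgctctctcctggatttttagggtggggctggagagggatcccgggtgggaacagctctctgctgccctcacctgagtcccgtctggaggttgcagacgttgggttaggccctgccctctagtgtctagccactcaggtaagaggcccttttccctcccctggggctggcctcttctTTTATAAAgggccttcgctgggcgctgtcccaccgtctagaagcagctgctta
Krt18, chr15:102027966-102028265, plus strand: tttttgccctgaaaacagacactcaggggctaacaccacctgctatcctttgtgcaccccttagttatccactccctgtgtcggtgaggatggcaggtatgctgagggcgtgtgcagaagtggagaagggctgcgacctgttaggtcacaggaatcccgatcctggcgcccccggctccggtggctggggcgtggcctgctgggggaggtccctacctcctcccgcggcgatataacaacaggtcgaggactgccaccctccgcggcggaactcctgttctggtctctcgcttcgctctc
Krt10, chr11:99389315-99389614, minus strand: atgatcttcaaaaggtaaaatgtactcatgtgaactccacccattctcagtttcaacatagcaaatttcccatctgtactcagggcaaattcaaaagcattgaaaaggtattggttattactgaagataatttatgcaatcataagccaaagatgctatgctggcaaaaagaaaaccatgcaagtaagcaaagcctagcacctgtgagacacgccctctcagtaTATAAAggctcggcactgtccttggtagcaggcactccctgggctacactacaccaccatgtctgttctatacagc
The Krt10 window holds TATAAA with its first base at -26 from the start. The Krt8 window holds overlapping matches on both strands with first bases at -3 and -1, and the Krt18 window holds none. The RefSeq starts used for Krt8, Krt18 and Krt7 lie inside the annotated genes. TATAAA occurs in 13.6% of all 32851 promoter windows. The GC box GGGCGG occurs in 35.7% of windows, and of the 4 members matched the Krt7 window alone held it, at 4 places. That window, chr15:101412153-101412452, lies wholly inside the annotated gene, which begins at 101411043. Neither TGANTCA (the AP-1 site, 7.81% of windows) nor GGTGTGA (a T-box core, 3.98%) was found in any of the 4 windows. GC content was 58.0%, 61.3%, 66.3% and 42.0% for Krt8, Krt18, Krt7 and Krt10, against a median of 52.7% over all windows. These matches describe the windows and say nothing of binding.

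Levels are CPM of the UMIs summed over the cells of a gate in a library. They are not divided by transcript length, since each captured molecule gives 1 UMI at its 3′ end whatever its length, but capture can differ between genes, so levels of different genes compare counted molecules only.

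Among the type II members Krt8 was the most abundant. Krt8 stood at 2049.7, 3133 and 3093 CPM in the NP-gated cells of libraries 1, 2 and 3, against 2.36, 0.682 and 0.380 CPM in all other gated cells. All NP-gated values lay far above all values of the other cells, and the groups did not overlap. Krt80 stood at 172, 147 and 173 CPM in NP-gated cells, with a spread of 14.6 CPM (SD, n = 3) around 164 CPM, against 1.05, 3.37 and 2.02 CPM in all other gated cells. Krt7, the ductal type II keratin, stood at 89.8, 105 and 137 CPM in NP-gated cells, against 0.377, 0.429 and 0.736 CPM in all other gated cells. Krt8 thus gave 90.7 ± 1.93% of the type II UMIs of the members (SD, n = 3), and Krt80 and Krt7 the rest.

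Among the type I members Krt19 led. Krt19 stood at 1939, 2533 and 1597 CPM in NP-gated cells, against 3.07, 0.368 and 0.121 CPM in all other gated cells. Krt18, the classical partner of Krt8, stood at 706, 1079 and 730.0 CPM in NP-gated cells, against 4.88, 2.70 and 2.93 CPM in all other gated cells. Krt19 held 70.0 ± 2.36% and Krt18 29.0 ± 2.37% of the type I UMIs of the members (SD, n = 3), and Krt19 was above Krt18 in each library. Krt10, of the epidermal pair, was by far the lowest member, with 29.2, 26.5 and 27.4 CPM in NP-gated cells, against 11.9, 7.33 and 7.96 CPM in all other gated cells. The 6 members together made up 0.592 ± 0.103% of all UMIs of NP-gated cells (SD, n = 3), against 0.00175 ± 0.000527% in all other gated cells.

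**Figure D1:**
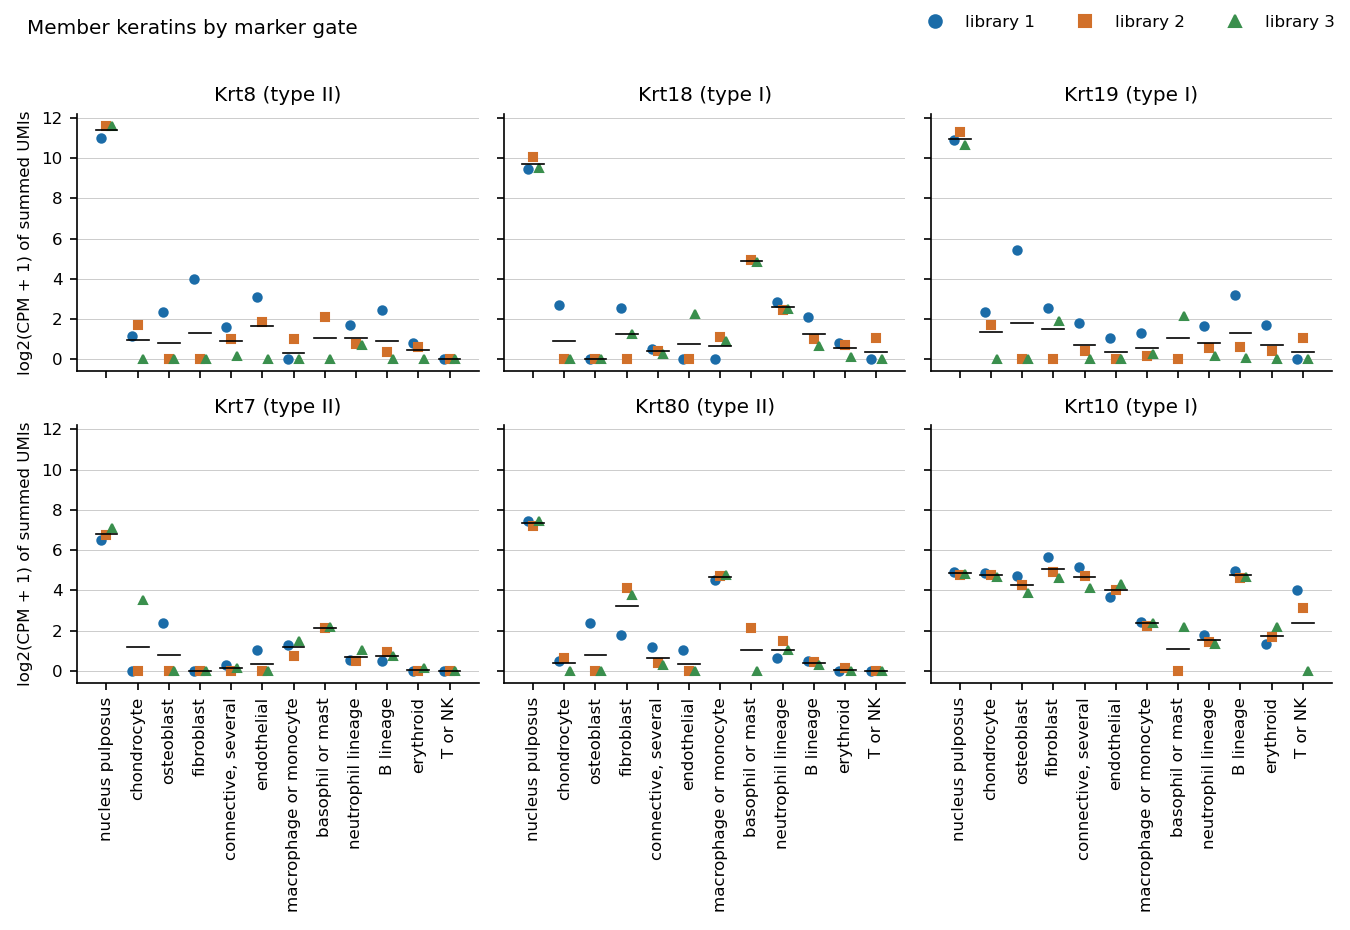
Level of each of the 6 keratins by gate, as log2(CPM + 1), with the NP-gated cells leftmost. Each point is 1 library with at least 10 cells in the gate and the line is the mean of the log2 values. Krt8, Krt19, Krt18, Krt7 and Krt80 stand highest in NP-gated cells in each library, while Krt10 is near 25 CPM in several gates.

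Ordered over the 16 gates with at least 10 cells in a library, 5 of the 6 keratins had NP-gated cells first, with no overlap between their libraries and those of any other gate. The share of all genes with such an order was not counted, so how unusual this is cannot be read from it. For Krt8 the next gates were fibroblast at 4.88 ± 8.46 CPM and endothelial at 3.36 ± 3.82 CPM (SD, n = 3 each), which did not differ beyond their spread. For Krt19 the next was osteoblast at 13.9 ± 24.1 CPM, where 1 library gave 41.8 CPM and the lowest 0. For Krt7 the next was chondrocyte at 3.45 ± 5.97 CPM. Below NP-gated cells the orders of these 3 genes thus rest on few UMIs, with spreads above the means. The other gates asked for no UMI of T but set no limit on Car3. In library 1, 1 fibroblast-gated cell held 9 UMIs of Krt8, Krt18 and Krt19 together, and 17 of Car3. Among cells of that library with at least 2 of these 3 genes, 5 of 5 B lineage, 2 of 3 chondrocyte and 4 of 17 neutrophil lineage cells had at least 2 UMIs of Car3. Whether such cells are NP cells or doublets was not tested.

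Krt18 and Krt80 each had a second gate above the rest, for Krt18 one of few cells. Krt18 was 28.9 ± 1.67 CPM in basophils or mast cells (SD, n = 2). In libraries 2 and 3 a UMI was seen in 21.4% of 28 and 25.0% of 24 of these cells. Library 1, left out for its 7 such cells, gave 54.7 CPM from 3 UMIs. In the neutrophil lineage Krt18 was 5.10 ± 0.936 CPM (SD, n = 3). Krt80 was 24.4 ± 2.12 CPM in macrophages or monocytes (SD, n = 3), of which 14.9%, 18.8% and 21.3% had a UMI. In B lineage cells, a class that should lack these keratins, a UMI of Krt18 was seen in 1.55%, 0.627% and 0.343% and a UMI of Krt80 in 0.111%, 0.196% and 0.0936%. Those cells were shallower, with medians of 2707, 3537 and 2646 UMIs, against 7671.5, 8584 and 8067 in macrophages or monocytes and 10999.5 and 11370.5 in basophils or mast cells of libraries 2 and 3. Thinned to 1500 UMIs a cell, Krt80 was seen in 4.05%, 4.35% and 3.97% of macrophages or monocytes, against 0%, 0.0807% and 0.0330% of B lineage cells, above that background in each library. Thinned Krt18 was seen in 7.14% and 0% of the few basophils or mast cells, against 0.161% and 0.0991% of B lineage cells, which is too few cells to set it apart from background per cell.

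Krt10 followed another order. Fibroblasts came first at 33.8 ± 13.3 CPM, then NP-gated cells at 27.7 ± 1.40 CPM, the marrow stromal gate at 27.7 CPM in its 1 library, chondrocytes at 26.4 ± 2.21 CPM and B lineage cells at 26.0 ± 3.68 CPM (SD, n = 3 where given). None of these neighbours differed beyond its spread. Among the lowest were macrophages or monocytes at 4.13 ± 0.339 CPM, erythroid cells at 2.39 ± 0.982 CPM, the neutrophil lineage at 1.90 ± 0.491 CPM and basophils or mast cells at 1.73 ± 2.45 CPM (n = 2 for the last and 3 for the others). Plasmacytoid dendritic cells stood at 24.5 ± 4.22 CPM and T or NK cells at 7.59 ± 7.58 CPM (SD, n = 3 each). The keratin of the epidermal pair was thus at like levels in NP-gated, B lineage, plasmacytoid dendritic and several connective classes. It was low in the neutrophil lineage, macrophages or monocytes, basophils or mast cells and erythroid cells.

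In the test across all genes of NP-gated against all other gated cells (edgeR's quasi-likelihood test with the library as block, and Benjamini-Hochberg adjustment), 6 of 6 members were called higher, against 15.1% of the 14125 genes tested. The members were chosen with earlier results of these data known, so such counts of calls, here and below, are descriptions and no test of the set. Krt19 was at a log2 fold change of 11.63 ± 0.78 (SE, adjusted p = 4.82e-47). Krt8 was at 11.38 ± 0.80 (SE, adjusted p = 1.62e-43), within an SE of Krt19. Krt18 was at 7.66 ± 0.58, Krt7 at 7.54 ± 0.47 and Krt80 at 6.12 ± 0.46 (SE), with adjusted p of 2.07e-37, 1.60e-55 and 1.47e-38. Krt10 was at 1.43 ± 0.43 (SE, adjusted p = 0.00338), a call that rested on library 2, since without it the log2 fold change of 1.33 did not pass the threshold. The median log2 fold change of the members was 7.60, beside -0.28 over all genes tested. All other gated cells are a mixture of classes in numbers that differ between libraries, and most are blood cells, in several of which Krt10 is low.

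The comparison with connective cells sets NP-gated cells against those of the surrounding disc, bone and stroma. That side too is a mixture, and its makeup differed between the libraries. In libraries 1, 2 and 3 its chondrocyte markers summed to 52658, 29257 and 2462 CPM and its osteoblast markers to 9967, 70967 and 146474 CPM. The part of this shift in the folds was not tested. Krt8 was 2.22, 1.06 and 0.0728 CPM in connective cells, Krt19 was 4.25, 0.634 and 0.146 CPM and Krt18 was 3.00, 0.211 and 0.218 CPM, each below the NP-gated values given above. In that test 5 of 6 members were called higher, against 8.18% of the 11731 genes tested (12.7% were lower). Log2 fold changes were 11.46 ± 0.80 for Krt8, 10.82 ± 0.76 for Krt19, 9.91 ± 0.68 for Krt18, 9.05 ± 0.49 for Krt7 and 7.47 ± 0.38 for Krt80 (SE), with edgeR's adjusted p between 1.30e-12 and 7.99e-11. The connective side of these folds rests on few molecules, such as 2, 0 and 4 UMIs of Krt7 in libraries 1, 2 and 3. Krt10 was the exception, with 29.2, 26.5 and 27.4 CPM in NP-gated cells against 32.1, 24.6 and 16.2 CPM in connective cells. The groups overlapped, and its log2 fold change was 0.062 ± 0.33 (SE, adjusted p = 0.929). The median of the members was 9.48, beside -0.14 over all genes tested. These 2 comparisons share the NP-gated sums.

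**Figure D2:**
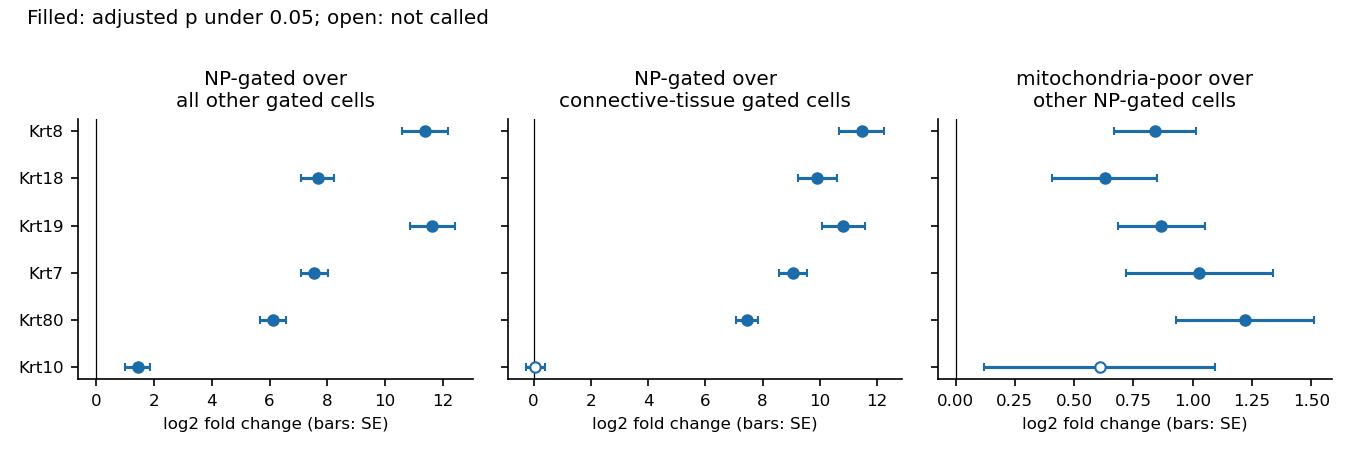
Log2 fold change of each keratin with its SE as bars, in NP-gated against all other gated cells, NP-gated against connective cells, and mitochondria-poor against other NP-gated cells. Filled points have an adjusted p under 0.05. Krt10 lies near 0 against connective cells (0.062), where the other 5 lie between 7.47 and 11.46.

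The share of cells with a UMI gives the same picture per cell. Of the NP-gated cells of libraries 1, 2 and 3, 97.8%, 99.3% and 92.0% had a UMI of Krt8, against 1.77%, 0.196% and 0% of B lineage cells (0 of 3205 cells in library 3, which allows a share of up to 0.0936%). For Krt19 the shares were 98.2%, 99.3% and 96.0% of NP-gated cells, against 2.77%, 0.353% and 0.0312% of B lineage cells. For Krt18 they were 74.0%, 89.3% and 72.0% of NP-gated cells, against 1.55%, 0.627% and 0.343% of B lineage cells. In libraries 1 and 3 both classes were of like depth, at medians of 3100 and 2205 UMIs in NP-gated cells against 2707 and 2646 in B lineage cells.

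Thinned to 1500 UMIs a cell, which leaves 416, 133 and 18 NP-gated cells and removes the depth gap, the shares were 92.1 ± 3.31% for Krt8, 91.7 ± 2.93% for Krt19, 65.7 ± 8.21% for Krt18, 17.3 ± 6.22% for Krt80 and 15.02 ± 2.01% for Krt7 (SD, n = 3). Without thinning they averaged 96.4%, 97.8%, 78.4%, 48.4% and 34.2%. Krt10 was at 4.22 ± 1.28% of thinned NP-gated cells and 4.07 ± 0.890% of thinned B lineage cells (SD, n = 3 each), a difference smaller than the spread. Unthinned, Krt10 was seen in 15.5 ± 5.75% of NP-gated and 12.96 ± 0.919% of B lineage cells.

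Within NP-gated cells the amounts varied severalfold from cell to cell. The sum of Krt8, Krt18 and Krt19 had a median of 52.5, 66.5 and 76.1 UMIs per 10000 in libraries 1, 2 and 3. From the tenth to the ninetieth percentile it ran from 23.6 to 88.8, from 32.4 to 103 and from 19.8 to 122 per 10000, with coefficients of variation of 48.2%, 48.1% and 53.7%. Median levels per cell were 21.0, 28.7 and 46.2 per 10000 for Krt8, 22.1, 24.3 and 21.2 for Krt19, and 5.44, 7.61 and 8.74 for Krt18. Krt19 held more UMIs than Krt18 in 85.2%, 84.3% and 80.0% of NP-gated cells, and Krt18 more than Krt19 in 48, 19 and 2 cells. The lead of Krt19 over Krt18 was thus a trait of most single cells, while a minority ran the other way.

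Pairing of the types was then counted. After thinning, 381 of 416, 126 of 133 and 15 of 18 NP-gated cells held a UMI of both a type I and a type II member, which is 91.6%, 94.7% and 83.3% with exact 95% Clopper-Pearson intervals of 88.5 to 94.1%, 89.5 to 97.9% and 58.6 to 96.4% (counting error only). The mean over libraries was 89.9 ± 5.89% in NP-gated cells, against 0.132 ± 0.195% in thinned B lineage cells (SD, n = 3 each). A mean of 94.8% of thinned B lineage cells held neither type, so they show background and say nothing of pairing. Most NP-gated cells held each type, and whether both were seen together more often than independent detection would give was not tested. Cells with type II alone numbered 10, 3 and 1, those with type I alone 16, 2 and 1, and those with neither 9, 2 and 1. Cells with 1 type alone were thus few for either type. Without thinning both types were seen in 97.8%, 98.6% and 92.0% of NP-gated cells, against a mean of 0.258 ± 0.261% of B lineage cells. Leaving Krt10 out of the type I members left the NP-gated means at 89.9% thinned and 96.1% unthinned.

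**Figure D3:**
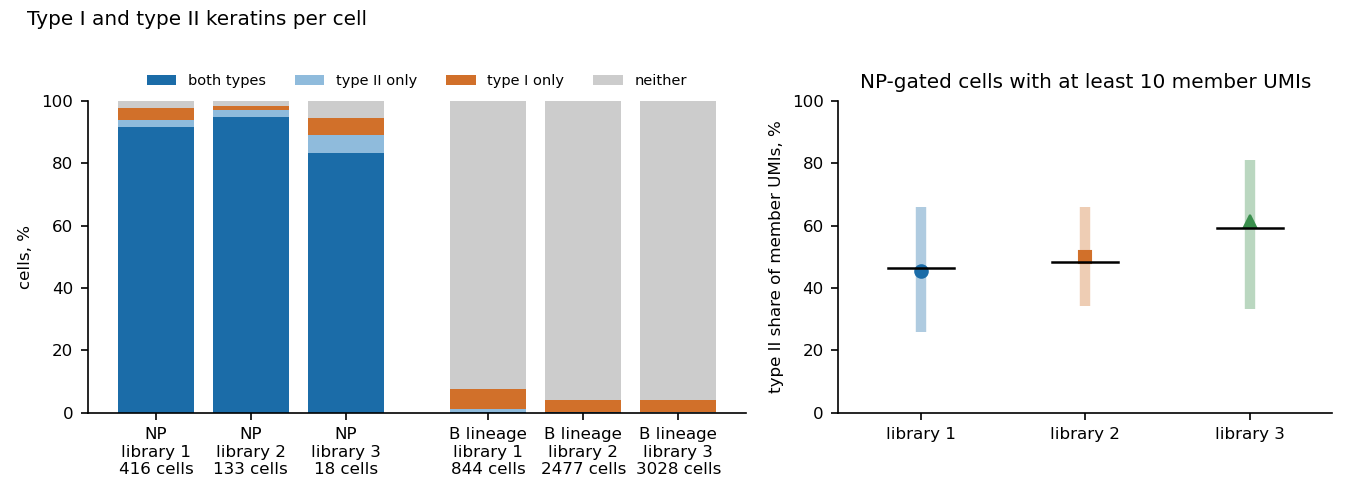
Left, shares of cells (percent, thinned to 1500 UMIs) with both keratin types, type II alone, type I alone or neither, for the NP-gated cells of each library and then the B lineage cells. Right, type II share of the keratin UMIs (percent) per NP-gated cell with at least 10 such UMIs, where the band is the tenth to ninetieth percentile, the marker the median and the black line the share of the summed UMIs. Both types are seen in 83.3% to 94.7% of NP-gated cells, and the medians are 45.5%, 50.0% and 61.5%.

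The most common number of members detected in a thinned NP-gated cell was 3 of the 6, in 175, 63 and 10 cells. All of Krt8, Krt18 and Krt19 were seen in 208, 85 and 13 thinned cells (50.0%, 63.9% and 72.2%), and in 72.6%, 89.3% and 72.0% unthinned. Krt19 had a UMI in 93.5%, 96.1% and 93.8% of thinned cells with Krt8, against 70.6%, 66.7% and 50.0% of the 34, 6 and 2 thinned cells without it. Krt18 had a UMI in 58.4%, 68.5% and 81.2% of thinned cells with Krt8, against 35.3%, 66.7% and 0% of those without it. The cells without Krt8 are few in libraries 2 and 3. Across thinned cells, which share a library and a depth, the rank correlation was 0.22, 0.35 and 0.39 for Krt8 with Krt19, and 0.21, 0.12 and 0.04 for Krt8 with Krt18, given as a description of counts that are small in most cells.

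The balance of the types was near even in the sums. Type II members held 46.4%, 48.2% and 59.1% of the member UMIs of NP-gated cells (5533 of 11933, 4344 of 9012 and 373 of 631), with exact intervals of 45.5 to 47.3%, 47.2 to 49.2% and 55.2 to 63.0% that cover counting error only. The mean was 51.2 ± 6.89% (SD, n = 3), and library 3, the one with fewest cells, lay above the others. In cells with at least 10 member UMIs (381, 131 and 20 cells) the median type II share was 45.5%, 50.0% and 61.5%. Its SD between cells was 15.6, 13.3 and 19.8 percentage points, beside 10.96, 7.61 and 11.3 that counting alone would give at these UMI numbers. The balance therefore varied between cells by more than the counting error of the UMIs in each library. Krt8 held 2.91, 2.90 and 4.24 UMIs per UMI of Krt18, and Krt19 held 2.75, 2.35 and 2.19, so that Krt18 alone did not match Krt8 in number.

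NP-gated cells were further divided by their share of mitochondrial UMIs, since many had almost none. Mitochondria-poor cells (under 1% mitochondrial UMIs) numbered 392, 31 and 15 and the other NP-gated cells 101, 109 and 10. Krt8 was 2540.1, 3662 and 5822 CPM in mitochondria-poor cells, against 1448, 3073 and 2134 CPM in the other NP-gated cells. Krt19 was 2594, 3554 and 2245 CPM in mitochondria-poor cells, against 1134, 2418 and 1369 CPM in the others. Krt18 was 880.0, 1275 and 982 CPM in mitochondria-poor cells, against 491, 1056 and 641 CPM in the others. Within each library the mitochondria-poor value was the higher one for all 3 genes, while over all libraries the groups overlapped.

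The minor type II members went the same way. Krt80 was 236, 216 and 351 CPM in mitochondria-poor cells, against 93.0, 139.5 and 111 CPM in the others, and Krt7 was 117, 155 and 246 CPM, against 56.8, 99.7 and 98.7 CPM. For both genes the groups did not overlap, and the share of all genes for which this holds was not counted. Krt10 was 32.6, 23.2 and 105 CPM in mitochondria-poor cells, against 25.1, 26.9 and 0 CPM in the others, where library 3 rests on 3 UMIs against 0. The members together held 0.640%, 0.888% and 0.975% of the UMIs of mitochondria-poor cells, against 0.325%, 0.681% and 0.435% of those of the others.

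In the test of this split 5 of 6 members were called higher, against 6.64% of the 5469 genes tested. Log2 fold changes were 1.22 ± 0.29 for Krt80, 1.03 ± 0.31 for Krt7, 0.87 ± 0.19 for Krt19, 0.84 ± 0.17 for Krt8 and 0.63 ± 0.22 for Krt18 (SE), with edgeR's adjusted p of 3.43e-04, 0.00679, 4.12e-05, 2.12e-05 and 0.0244. Krt10 was at 0.61 ± 0.49 (SE, adjusted p = 0.400). The median of the members was 0.85, beside -0.08 over all genes tested, and edgeR with RLE size factors moved that median over all genes by -0.13. These calls depended on library 1, since without it none of the 5 passed, with log2 fold changes of 0.19 for Krt18, 0.40 for Krt19, 0.60 for Krt8, 0.61 for Krt7 and 0.76 for Krt80, and none of the 5 passed with DESeq2 either. Without library 2 the calls of Krt7 and Krt18 were lost, with log2 fold changes of 1.17 and 0.75.

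Other transcripts moved with this split. The gate genes T and Car3 together stood at 23752, 34287 and 38476 CPM in mitochondria-poor cells, against 10976, 17142 and 15293 CPM in the other NP-gated cells, and their part in the keratin result was not tested. The 32 connective markers summed to 900, 587 and 772 CPM in mitochondria-poor cells, with 12, 21 and 25 of them at 0, against 18678, 4026 and 49788 CPM in the other NP-gated cells, with 3, 11 and 13 at 0. In library 3 most of that was osteoblast markers, at 316 CPM in mitochondria-poor cells against 46643 CPM in the others. Median depth moved too, at 2626, 3450 and 1731 UMIs in mitochondria-poor cells against 8555, 10326 and 5144.5 in the others. Leaving out the 35, 10 and 2 NP-gated cells that also passed a connective gate, which left libraries 1 and 2, gave 0.44 for Krt8 and 0.41 for Krt18, which did not pass the threshold, and kept the calls of Krt7, Krt80 and Krt19. The part of depth in the result was not tested beyond the thinned pairing, where both types were seen in 97.5 ± 2.19% of mitochondria-poor cells, against 80.1 ± 12.7% of the other NP-gated cells (SD, n = 3 each).

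**Figure D4:**
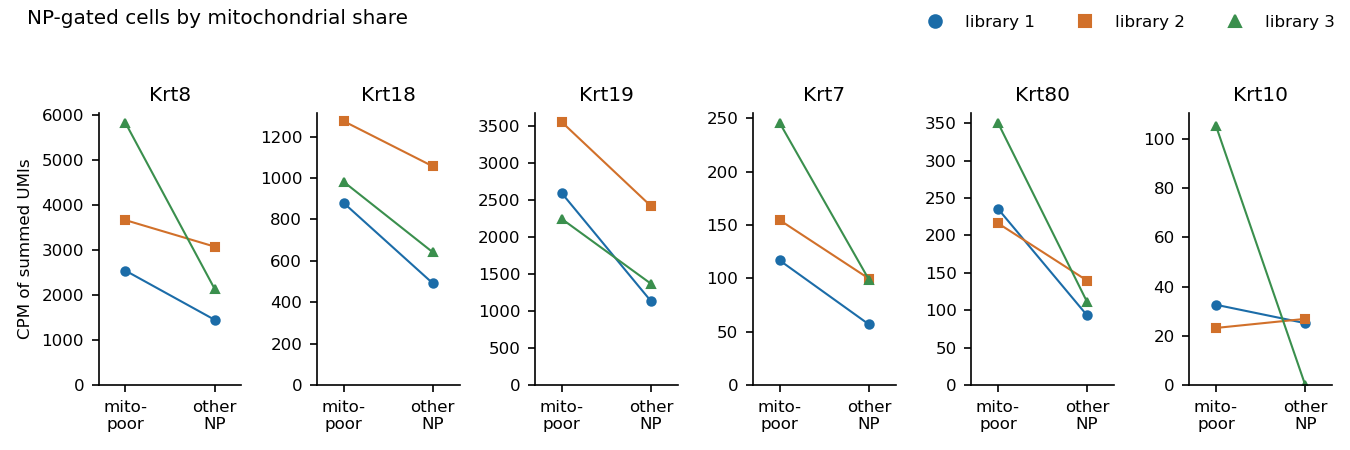
CPM of each keratin in mitochondria-poor and other NP-gated cells, with the points of a library joined by a line. Lines fall to the right for Krt8, Krt18, Krt19, Krt7 and Krt80 in each library, while Krt10 goes either way (32.6, 23.2 and 105 CPM against 25.1, 26.9 and 0 CPM).

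Most of the other 47 keratins were near silent in NP-gated cells, where 14 of the 47 had a UMI and 4 had at least 10. Of 7 tested against all other gated cells, 3 were called higher and 2 lower, beside 15.1% and 22.1% of all genes tested. Krt20, the type I keratin of gut and bladder lining, was 33.0, 19.5 and 18.2 CPM in NP-gated cells, against 0.099, 0.008 and 0.040 CPM in all other gated cells, at a log2 fold change of 8.96 ± 0.72 (SE, adjusted p = 3.33e-33). Krt87, a hair-type keratin, was 27.2, 14.0 and 45.6 CPM in NP-gated cells, against 0.278, 0.046 and 0.049 CPM, at 7.67 ± 0.65 (SE). Both were also called higher against connective cells, at 7.72 and 5.22. Krt20 therefore stood at about the level of Krt10 in NP-gated cells, but unlike Krt10 was not spread over other gates.

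Krt1, the epidermal partner of Krt10, had 7 UMIs in NP-gated cells and was called higher than in all other gated cells at 3.05 (adjusted p = 0.0112). Against connective cells it was at 0.31 (adjusted p = 0.858), and its mean level was 4.12 ± 4.34 CPM in NP-gated cells against 6.74 ± 6.16 CPM in chondrocytes (SD, n = 3 each). The hair keratins Krt83 and Krt81 were lower in NP-gated cells, at -7.90 and -5.75, and were highest in the neutrophil lineage at 69.0 ± 86.9 and 29.1 ± 42.3 CPM (SD, n = 3), levels set mostly by 1 library. Krt81, Krt83 and Krt87 are close paralogs, and how reads were divided among them is uncertain. Against connective cells Krt16, a keratin of stressed epidermis, was called lower at -2.27, with 15.9, 0 and 0 CPM in NP-gated cells against 55.7, 15.4 and 0.146 CPM in connective cells. In mitochondria-poor against other NP-gated cells 2 of the 47 were tested and 0 called.

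Among 16 other intermediate filament genes 11 were tested against all other gated cells, 3 called higher and 4 lower, beside 15.1% and 22.1% of all genes tested. Vim, the vimentin of mesenchymal cells, was 10721, 17613 and 14627 CPM in NP-gated cells, against 624, 751 and 665 CPM in all other gated cells, at 4.10 ± 0.75 (SE, adjusted p = 3.97e-07). It was called higher against connective cells too, at 4.08, and in mitochondria-poor cells, at 0.62. NP-gated cells thus held more counted molecules of Vim than of the 6 keratins together. Lmna, a nuclear lamina gene, was at 1.71 and Synm, which joins other filaments, at 1.55, but against connective cells neither was called (0.26 for Lmna and -0.98 for Synm). Bfsp2, a lens filament gene, was lower at -5.19, and Nefh, a neurofilament gene, had 0 UMIs in NP-gated cells and 1.75, 1.85 and 2.06 CPM in all other gated cells. Against connective cells 7 were tested, and Nes, the nestin gene, was called lower at -2.68.

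Keratin filaments are anchored to the membrane by plakins at desmosomes and hemidesmosomes. A list of 19 genes was drawn up for such linkers and keratin-binding proteins. Of these 15 were tested against all other gated cells, with 5 called higher and 1 lower, beside the same shares of all genes. Dsp, desmoplakin, was 63.1, 360.0 and 73.0 CPM in NP-gated cells, against 0.476, 0.215 and 0.202 CPM in all other gated cells, at 8.55 ± 0.54 (SE, adjusted p = 1.02e-52). Pkp1, a desmosomal plakophilin, was at 8.24 and Dst, the hemidesmosomal plakin, at 4.39, while Pnn was lower at -1.05. Against connective cells Dsp was at 8.36, Pkp1 at 5.58 and Dst at 2.13, with Sfn lower at -2.11. Krtcap2, on the list although binding of its protein to keratins is not established here, was lower at -1.20. In mitochondria-poor cells 0 of the 11 listed genes tested were called higher and 4 lower, beside 15.8% of all genes tested called lower. These were Plec at -2.29, Macf1 at -1.83, Dst at -1.75 and Pnn at -1.17.

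Of 22 regulators and markers of epithelial state, 10 were tested against all other gated cells, 4 called higher and 1 lower, again beside 15.1% and 22.1% of all genes. Cdh2, N-cadherin, was at 3.75 but was not called against connective cells (0.81). The transcription factors Klf5 and Tfap2a were at 2.19 and 5.45. Tfap2a stood at only 1.671, 2.338 and 9.125 CPM in NP-gated cells and was not tested against connective cells. Among repressors of epithelial genes Zeb2 was lower at -1.31 and Snai1 was higher at 1.74, and neither was called against connective cells (-0.73 for Zeb2 and -0.70 for Snai1). Against connective cells 8 were tested, and Klf5 was called higher at 5.03, with Twist1 and Snai2, which drive mesenchymal state, lower at -3.59 and -2.41. For Twist1 the NP-gated libraries were uneven, at 9.61, 0 and 137 CPM against 73.9, 240.2 and 389.6 CPM in connective cells. In mitochondria-poor cells 0 of 6 were called higher and 4 lower, Klf4 at -3.07, Zeb2 at -1.86, Zeb1 at -1.49 and Cdh2 at -1.47, again beside 15.8% of all genes.

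Over the 43 sums of a gate in a library with at least 10 cells, the genes whose log2(CPM + 1) followed the mean of Krt8, Krt18 and Krt19 most closely were 9330158H04Rik (r = 0.952), Slc15a5 (0.950), Dsp (0.943), Myl7 (0.943) and Cdh6 (0.939), out of 8298 genes considered. The sums share libraries and gates, so r is a description. Krt8 followed Krt19 at 0.937 and Krt18 at 0.840. For Krt7 the nearest genes were again 9330158H04Rik (0.894), Slc15a5 (0.893) and Myl7 (0.893), while for Krt80 they were Plcl1 (0.809), Acta2 (0.796) and Hopx (0.783). Krt10 was nearest to Sdc4 (0.847), Mrfap1 (0.842) and Scd2 (0.826), and reached only 0.003 to 0.322 with the other members.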

How the data were processed

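Single-cell RNA-seq counts came from 3 libraries. Per the labels, the kit was Chromium Single Cell 3′ v3, and the submitters' processing notes name Cell Ranger 3.0.2, Seurat 4 and mm10, while per the file headers the matrix of library 1 was written by version 3.0.1 and those of libraries 2 and 3 by 6.0.0. The authors deposited raw UMI counts per gene and barcode on a filtered barcode list, with no normalization. Libraries list 31053, 32285 and 32285 genes, and the 30406 shared Ensembl IDs hold 99.9%, 99.6% and 99.6% of their UMIs.

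Barcodes were kept with a minimum of 500 genes and a mitochondrial share of up to 15%. Gates used UMIs of T and Car3 or of other marker lists, as given above, and a class needed 10 cells in a library. No doublet caller was used in the main result: Scrublet marked 0.0174%, 4.67% and 3.74% of cells, so it did not work in library 1. Cells that passed gates of different kinds were set apart instead. NP-gated cells that also passed a connective gate were kept, as were cells of several blood or several connective classes. Doublets of those kinds can therefore remain. CPM is the gene's share of all UMIs of the summed cells on the usual scale. Sums per library and side were tested with edgeR 4.0.16 (filterByExpr, TMM, quasi-likelihood) in R 4.3.3, the model holding a replicate block for the library, and p adjusted by Benjamini-Hochberg over all genes tested. The SE is the absolute log2 fold change over the square root of F. A gene was called at adjusted p under 0.05. The labels number 1 pool per library, so both of its sums pair, and their deviations from the group means correlated at 0.319, 0.0960 and 0.292 in libraries 1, 2 and 3 (NP-gated against all other gated cells). p-values set the difference between the sides against its spread over these 3 pools, with the dispersion estimated in part from all genes. A very small p thus does not rest on the 3 pools alone. Cells were thinned once to 1500 UMIs by drawing without replacement in Python 3.11.15 with numpy 2.4.6. The tests were checked on simulated counts.

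The members, marker and gene lists were chosen with earlier results of these data known. Named genes are the members, the 3 largest and 2 smallest log2 fold changes called in each other list, and the 5 or 3 genes most like the members in pattern, among those with at least 50 CPM in 1 sum. Plec, Macf1, Klf4 and Zeb1, Dst, Pnn, Zeb2, Cdh2 and Vim in the mitochondria-poor comparison, and Snai1, were named after their values were seen. Alternatives were DESeq2 1.42.0, other normalization, filters, gates and thinning, no block, and leaving out each library.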

Additional observations from a re-analysis of the deposited data

Results flagged for a closer look

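Cells outside every gate were used in no comparison, and some of them held the keratins. A UMI of at least 2 of Krt8, Krt18 and Krt19 was seen in 74 of 547 such cells in library 1, 10 of 874 in library 2 and 4 of 726 in library 3, which is 13.5%, 1.14% and 0.551%. The limits that 3 cells would set are 0.548%, 0.343% and 0.413%. Of these cells 65, 7 and 3 had no UMI of T and at least 2 of Car3, and 4, 2 and 0 had a UMI of T. Their median depth was 1767, 3433.5 and 1347 UMIs. The sum of Krt8, Krt18 and Krt19 in them had a median of 50.2, 31.2 and 81.0 UMIs per 10000, beside 52.5, 66.5 and 76.1 in NP-gated cells. Over all kept cells, 646, 202 and 48 had at least 2 of these 3 genes, of which 481, 138 and 23 were NP-gated.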

How the results depend on the processing

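In 19 of 19 alternatives Krt8, Krt7, Krt80, Krt18 and Krt19 were called higher in NP-gated cells against all other gated cells, and likewise in 19 of 19 against connective cells. Krt10 was called higher against all other gated cells in 18 of 19, with leave-one-out values of 1.33 to 1.501, and against connective cells in 0 of 19. There its log2 fold change turned to -0.060 with at least 2 UMIs of T and 5 of Car3, to -0.11 with at least 1000 genes and to -0.16 with foreign-gated NP cells kept.

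Counts of genes called moved. Leaving out 1 library gave 2910 to 4851 genes against all other gated cells (5246 with all), 855 to 2379 against connective cells (2453) and 28 to 1443 for mitochondria-poor cells (1229). With no replicate block the last pair of counts was 1044 and 419, and DESeq2 gave 1627 and 422, in the mitochondria-poor comparison 17.1% higher calls against 29.5%. A limit of 2% mitochondrial UMIs gave 716.

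In the mitochondria-poor comparison every alternative run gave positive values for the 6 keratins, but calls were lost. With no replicate block log2 fold changes were 0.81 for Krt8, 0.94 for Krt7, 0.57 for Krt18 and 0.84 for Krt19. With DESeq2 they were 0.76 for Krt8, 0.91 for Krt7, 1.11 for Krt80, 0.53 for Krt18 and 0.77 for Krt19. Without connective-gated cells they were 0.44 for Krt8 and 0.41 for Krt18, with no low-count filter 1.05 for Krt7 and 0.65 for Krt18, with RLE scaling 0.54 for Krt18 and with the 2% limit 0.82 for Krt7. RLE moved the median of all genes by -0.13. Leaving out 1 library gave 0.60 to 1.09 for Krt8, 0.61 to 1.17 for Krt7, 0.76 to 1.48 for Krt80, 0.19 to 0.76 for Krt18 and 0.40 to 1.07 for Krt19. Without library 1 only 28 genes passed, Krt10 was not tested, and the cause of the lost calls was not tested. Libraries 1 and 2 alone had enough cells under the stricter gate, the 1000-gene minimum, the 2% limit and, added after the data were seen, without shared barcodes.

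The share of NP-gated cells with both types was 82.3% with foreign-gated cells kept, 96.1% unthinned and 82.2% thinned to 1000 UMIs, against 89.9%. Depth limits library 3 most, with 25 NP-gated cells.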
